A study of Mus musculus with 24 samples.

Results

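The 9 genes described here make, move, bind, break down or sense retinoic acid, or respond to it: Aldh1a2, Dhrs3, Cyp26b1, Stra6, Crabp1, Crabp2, Rara, Rarb and Ecm1. They were taken by gene symbol from a table of 13803 genes, and all 9 were present and tested. Messenger RNA was sequenced from stromal cells of embryonic mouse kidneys, sorted for the eGFP of FoxD1Cre-eGFP. In it the FoxD1 promoter of the kidney stroma drives both the Cre recombinase and the fluorescent marker. There were 24 libraries in 8 groups of 3: beta-catSD, deficient in beta-catenin, in C57BL/6 mice; beta-catSO, with stabilised beta-catenin, in CD1 mice; and wild-type stroma from either strain. Both days of development sampled, E12.5 and E13.5, are present for each genotype. Each mutant was compared with the wild-type of its own strain, the question being which stromal genes respond to deficiency or to stabilisation of beta-catenin. The series text names FoxD1Cre-eGFP for the kidneys of every genotype, so the wild-type cells are taken to carry it too. Strain goes with the mutant line, and which alleles produce the 2 mutants is not stated in the labels. The series text speaks of 3 kidneys for each genotype. The labels leave unsaid whether the 3 libraries of a group are different kidneys, embryos or litters, so a p-value here measures only the spread between these libraries.

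Retinoic acid is made from retinol, the transport form of vitamin A, in 2 oxidation steps, by way of retinaldehyde. Aldh1a2 catalyses the second, irreversible step, and in the embryonic kidney the stroma is its known site of expression. The acid diffuses to neighbouring cells, among them the branching ureteric bud, binds nuclear receptors of the RAR and RXR families on DNA, and is cleared by enzymes of the CYP26 family. Stromal retinoic acid is known for maintaining the receptor tyrosine kinase Ret in the ureteric bud. Beta-catenin is the transcriptional effector of canonical Wnt signalling and acts through TCF and LEF factors.

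Library totals ran from 6.18 to 21.2 mega-reads, and the 9 genes had between 143 and 26267 reads in every library. Axin2, a standard target of beta-catenin, was lower in beta-catSD (log2 change -1.02 ± 0.11 (SE), limma adjusted p = 2.06e-06) and higher in beta-catSO (3.60 ± 0.11, limma adjusted p = 6.63e-17), averaged over the stages. Transcripts of Ctnnb1, the beta-catenin gene, were lower in beta-catSD by a small amount (-0.24 ± 0.05, limma adjusted p = 0.00193). Of 11 general stromal markers all were detected in every group, with a summed level between 7660 and 12800 CPM (read counts scaled to a common library size). One library stood apart: wild-type CD1 E13.5 replicate 1 had the lowest stromal sum of the 24 and the highest sums of nephron progenitor markers (580 CPM), ureteric bud markers (429 CPM), endothelial markers (1050 CPM) and erythroid markers (4050 CPM). For the 9 genes, called beta-catSO changes at E13.5 and calls that change without it are given with and without it. Marker sums that it sets are given in the same way. Without it the stromal sums ran from 8900 to 12800 CPM. Liver transcripts were highest in wild-type C57BL/6 E12.5 replicate 3 (3920 CPM) and wild-type CD1 E13.5 replicate 3 (838 CPM).

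In wild-type stroma the 9 genes spanned a wide range. Levels of different genes are compared here only as log2 CPM per kilobase of exon, over the 12 wild-type libraries. Aldh1a2 stood at 9.15 ± 0.42 (SD, n = 12 libraries) and Crabp1 at 8.99 ± 0.48, the top of the order. Crabp2 (7.01), Ecm1 (6.14) and Dhrs3 (5.63) followed, then the receptors Rarb (4.33) and Rara (3.77), the retinol transporter Stra6 (3.36) and, at the bottom, the degrading enzyme Cyp26b1 (2.27). Aldh1a2 and Crabp1 were closer than their standard deviations, and per kilobase of coding sequence their order turned, as did that of Dhrs3 and Ecm1.

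**Figure D1:**
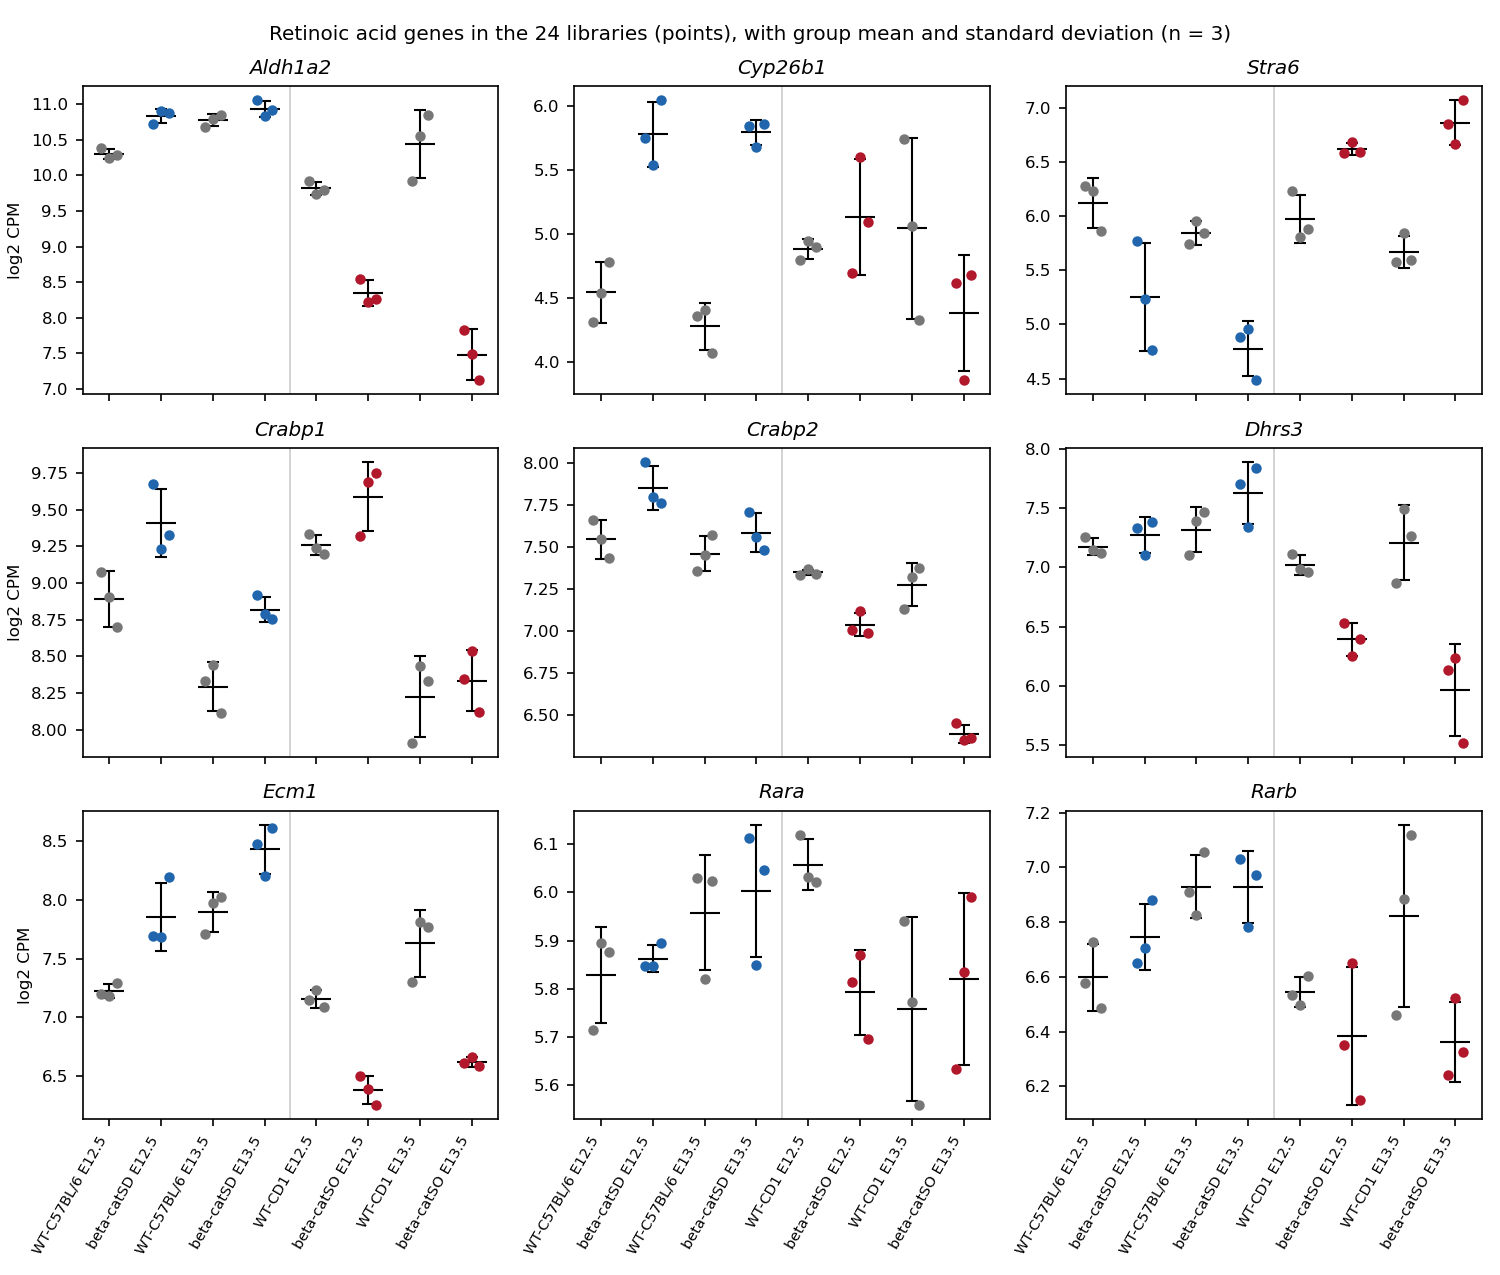
Each panel plots 1 gene in log2 CPM; points are the 24 libraries, and bars are the group mean and standard deviation of 3 libraries, with the beta-catSD line left of the grey line and the beta-catSO line right of it. Aldh1a2 in beta-catSO lies between 7.13 and 8.55, below every other library, while Rara stays between 5.56 and 6.12 throughout.

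With stabilised beta-catenin 5 of the 9 genes fell and 1 rose, averaged over the 2 stages; with deficient beta-catenin 4 rose and 1 fell. In beta-catSO, Aldh1a2, Crabp2, Dhrs3, Ecm1 and Rarb fell and Stra6 rose. In beta-catSD, Cyp26b1, Crabp1, Crabp2 and Ecm1 rose and Stra6 fell. A gene was called when limma, fitted to all genes and libraries, gave an adjusted p (Benjamini-Hochberg over 13803 genes) under 0.05. Over all genes the same rule called 18.5% in beta-catSO (10.2% higher and 8.32% lower) and 7.17% in beta-catSD (3.46% higher and 3.71% lower), beside 6 of 9 and 5 of 9 here. The 9 genes, and the gene lists used below, were chosen with earlier results of these data known. Counts of them set beside shares of all genes, here and below, are therefore a description and not a test. The balance over all genes in beta-catSO depended on the scaling: 1411 genes were higher and 1149 lower, and 1328 and 1505 under quantile normalization. The median log2 change of the 9 genes was -0.31 in beta-catSO and 0.21 in beta-catSD, and that of all genes was 0.00 in both. The bulk libraries cannot separate fewer cells of a type from less RNA per cell: these cannot be told apart for any change given here.

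**Figure D2:**
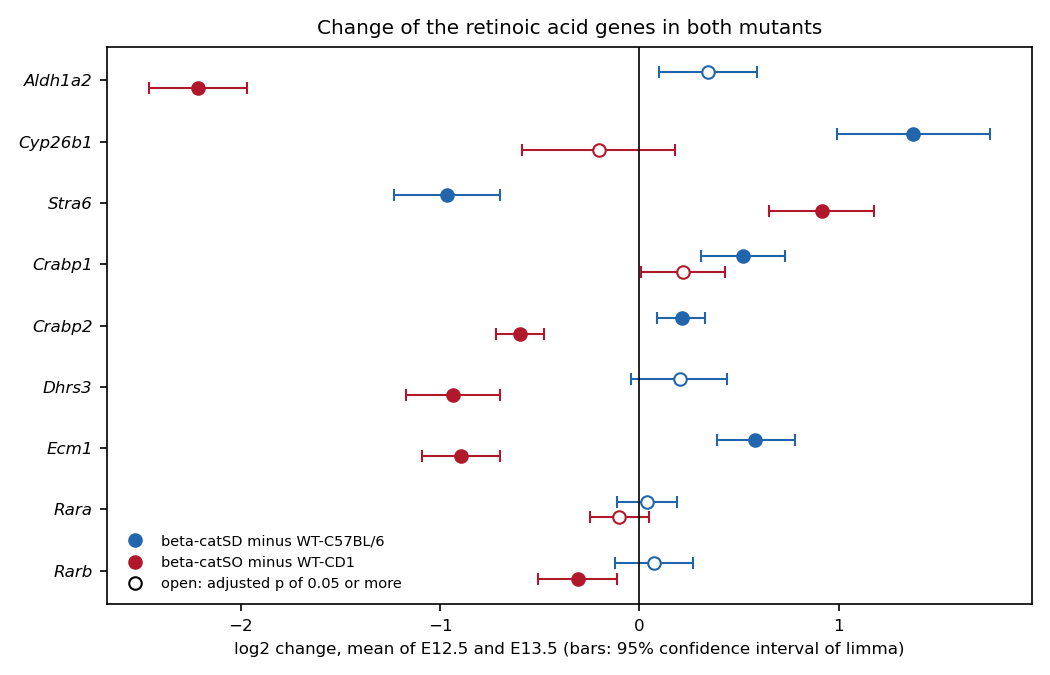
The x axis is the log2 change from wild-type, averaged over E12.5 and E13.5, for the 9 genes in beta-catSD (blue) and beta-catSO (red); bars are 95% confidence intervals of limma, and open points did not reach an adjusted p under 0.05. The intervals of the 2 mutants lie on opposite sides of 0 for Stra6, Crabp2 and Ecm1, and also for Aldh1a2, whose beta-catSD point is open.

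Aldh1a2, the retinaldehyde dehydrogenase that makes retinoic acid, gave the largest change of the 9 genes. Its gene lies on chromosome 9 (GRCm38, 71215789 to 71296243, plus strand). The RefSeq promoter window (GRCm38.p6, chr9:71215539-71215838, plus strand), from 250 bases before the start to 50 after it, is shown because this is the gene that fell furthest; it is rich in G and C, holds none of the motifs searched below, and so has no capitals.
Aldh1a2: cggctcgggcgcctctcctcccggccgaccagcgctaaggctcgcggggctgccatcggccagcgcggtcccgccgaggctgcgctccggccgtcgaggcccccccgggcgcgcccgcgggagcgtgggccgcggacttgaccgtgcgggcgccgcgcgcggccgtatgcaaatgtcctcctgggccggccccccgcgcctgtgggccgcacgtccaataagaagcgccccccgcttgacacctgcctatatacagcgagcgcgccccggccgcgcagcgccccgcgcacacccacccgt
At E12.5 the wild-type CD1 libraries read 9.92, 9.73 and 9.80 log2 CPM, and the beta-catSO libraries 8.55, 8.22 and 8.26. At E13.5 wild-type CD1 read 9.91, 10.55 and 10.85, and beta-catSO 7.83, 7.49 and 7.13. All 6 mutant libraries were below all 6 wild-type ones, and the E13.5 mutants were the lowest of the 24. The log2 change was -1.47 ± 0.17 at E12.5 (limma adjusted p = 2.19e-06), which is 2.78-fold lower. It reached -2.95 ± 0.17 at E13.5 (limma adjusted p = 8.75e-12), which is 7.75-fold lower. Without wild-type CD1 E13.5 replicate 1, the library that stood apart, the E13.5 change was -3.22.

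In the other mutant Aldh1a2 was not called. At E12.5 wild-type C57BL/6 read 10.38, 10.24 and 10.29 and beta-catSD 10.72, 10.90 and 10.88. At E13.5 wild-type C57BL/6 read 10.69, 10.79 and 10.85 and beta-catSD 11.06, 10.83 and 10.91. The groups were apart at E12.5, where the change was 0.53 ± 0.17 (limma adjusted p = 0.109), and overlapped at E13.5 (0.16 ± 0.17, limma adjusted p = 0.744). The average over the stages was 0.34, with a 95% interval from 0.10 to 0.59 (limma adjusted p = 0.0814), and it passed the threshold when the 12 libraries of the line were fitted alone (limma adjusted p = 0.00222).

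Dhrs3, a short-chain reductase that turns retinaldehyde back into retinol and so works against Aldh1a2, fell with it. The gene is on chromosome 4 (144892827 to 144928209, plus strand). Wild-type CD1 read 7.12, 6.99 and 6.96 at E12.5 and 6.86, 7.49 and 7.26 at E13.5; beta-catSO read 6.53, 6.25 and 6.39, then 6.14, 6.24 and 5.52. No mutant library reached a wild-type one at either stage. The changes were -0.63 ± 0.16 (limma adjusted p = 0.0155) and -1.24 ± 0.16 (limma adjusted p = 6.73e-06). The E12.5 call was lost without beta-catSO E12.5 replicate 2 (limma adjusted p = 0.0828) or replicate 3 (0.0517) or without wild-type CD1 E12.5 replicate 1 (0.0682). In beta-catSD, Dhrs3 ranged from 7.10 to 7.84 against 7.10 to 7.46 in wild-type C57BL/6, and the averaged change of 0.20 ± 0.12 was not called (limma adjusted p = 0.35).

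Cyp26b1, the cytochrome P450 that hydroxylates retinoic acid for removal, rose in beta-catSD and not in beta-catSO. It lies on chromosome 6 (84571414 to 84593908, minus strand). Its window (GRCm38.p6, chr6:84593761-84594060, minus strand, written along the gene) is shown beside that of Aldh1a2 as the degrading partner; none of the motifs searched is in it.
Cyp26b1: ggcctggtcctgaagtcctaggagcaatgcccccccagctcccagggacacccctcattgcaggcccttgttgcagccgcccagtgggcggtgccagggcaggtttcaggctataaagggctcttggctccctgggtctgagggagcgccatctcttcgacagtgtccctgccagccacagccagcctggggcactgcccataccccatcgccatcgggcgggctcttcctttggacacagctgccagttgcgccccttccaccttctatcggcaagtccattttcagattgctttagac
Wild-type C57BL/6 read 4.31, 4.54 and 4.79 at E12.5, and beta-catSD 5.75, 5.54 and 6.05. At E13.5 the values were 4.36, 4.41 and 4.07 in wild-type and 5.84, 5.68 and 5.86 in beta-catSD. Every beta-catSD library was above every wild-type C57BL/6 library. The changes were 1.24 ± 0.26 at E12.5, or 2.36-fold (limma adjusted p = 0.014), and 1.52 ± 0.26 at E13.5, or 2.86-fold (limma adjusted p = 0.00147). The E12.5 call was lost without beta-catSD E12.5 replicate 3 (limma adjusted p = 0.0932), wild-type C57BL/6 E12.5 replicate 1 (0.0753) or replicate 2 (0.0564); the averaged call, 1.38 ± 0.19 (4.65e-05), was kept without any 1 library.

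For beta-catSO the Cyp26b1 groups overlapped. Wild-type CD1 read 4.80, 4.95 and 4.90 at E12.5 and 5.74, 5.07 and 4.33 at E13.5; beta-catSO read 4.70, 5.60 and 5.10, then 4.62, 3.86 and 4.68. Wild-type CD1 E13.5 replicate 1 was the highest of its group in Cyp26b1 and the lowest in Aldh1a2. The E13.5 change was -0.66 ± 0.26 (limma adjusted p = 0.0975) with all libraries and -0.31 (0.438) without that one. It was called without wild-type CD1 E13.5 replicate 3, the lowest of the group (-1.02, limma adjusted p = 0.00765), so single wild-type libraries decide the value; with voom precision weights it was also called (-0.89, 0.0212).

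The difference between Aldh1a2 and Cyp26b1 within a library, in log2 CPM, was smaller in both mutants than in their wild-types. This difference was not tested; gene length adds the same amount to it in every library. It averaged 5.76 ± 0.29 (SD, n = 3) in wild-type C57BL/6 E12.5 and 5.05 ± 0.27 in beta-catSD E12.5, then 6.49 ± 0.25 and 5.14 ± 0.08 at E13.5. In the other line it averaged 4.94 ± 0.17 in wild-type CD1 E12.5 and 3.21 ± 0.62 in beta-catSO E12.5, then 5.39 ± 1.18 and 3.10 ± 0.60 at E13.5. The wild-type CD1 E13.5 value was 4.17 in replicate 1, the library that stood apart, and 5.48 and 6.52 in the others. Mutant and wild-type ranges did not overlap in any of these 4 pairs of groups. In beta-catSD the gap came with higher Cyp26b1, and in beta-catSO with lower Aldh1a2.

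**Figure D3:**
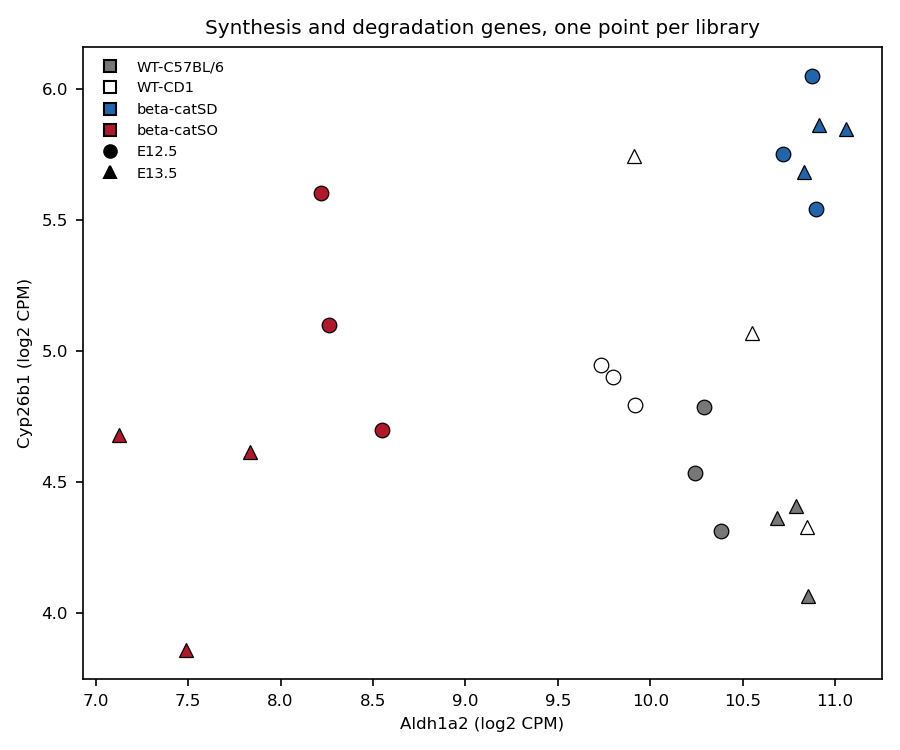
Each point is 1 library, with Aldh1a2 on the x axis and Cyp26b1 on the y axis, both in log2 CPM; circles are E12.5 and triangles E13.5. The beta-catSD libraries lie at the top right, at 5.54 or more in Cyp26b1, and the beta-catSO libraries on the left, at 8.55 or less in Aldh1a2.

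Stra6, the membrane receptor through which cells take up retinol from its plasma carrier, moved the other way: up with stabilised and down with deficient beta-catenin. The gene model spans 58063788 to 58153996 on chromosome 9 (plus strand), and its exons overlap the span of the gene Ccdc33 on the other strand. The second of its RefSeq windows (GRCm38.p6, chr9:58129099-58129398, plus strand) is shown because it holds the only match to CTTTGAT in the windows found, which cover 8 of the 9 genes. CTTTGAT is the core bound by TCF and LEF factors. Capitals mark that match, which reads ATCAAAG along the gene and begins 145 bases before the start.
Stra6: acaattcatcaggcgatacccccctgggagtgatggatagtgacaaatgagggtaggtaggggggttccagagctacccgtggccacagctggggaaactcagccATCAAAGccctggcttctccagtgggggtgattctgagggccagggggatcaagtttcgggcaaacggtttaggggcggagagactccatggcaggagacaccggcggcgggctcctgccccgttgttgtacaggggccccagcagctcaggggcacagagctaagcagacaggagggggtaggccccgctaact
CTTTGAT was searched on both strands, and 3.73% of 32851 RefSeq windows of this length hold it.

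Per library, Stra6 read 6.28, 6.23 and 5.86 in wild-type C57BL/6 E12.5 and 5.77, 5.23 and 4.77 in beta-catSD E12.5. At E13.5 it read 5.74, 5.96 and 5.84 in wild-type and 4.88, 4.96 and 4.49 in beta-catSD. The mutants were below the wild-types at both stages, by a narrow gap at E12.5. Wild-type CD1 read 6.23, 5.81 and 5.88 at E12.5 and 5.58, 5.84 and 5.60 at E13.5, against 6.58, 6.68 and 6.59, then 6.85, 6.66 and 7.07, in beta-catSO. All 6 beta-catSO libraries were above every other library of the study.

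In beta-catSD Stra6 changed by -0.87 ± 0.18 at E12.5 (limma adjusted p = 0.0119) and by -1.07 ± 0.18 at E13.5 (0.00115), and in beta-catSO by 0.65 ± 0.18 (0.0272) and 1.19 ± 0.18 (4.37e-05). Averaged over the stages Stra6 was 1.96-fold lower in beta-catSD (limma adjusted p = 3.29e-05) and 1.89-fold higher in beta-catSO (1.07e-05), and neither averaged call depended on 1 library. The beta-catSD call at E12.5 was lost without beta-catSD replicate 3 (limma adjusted p = 0.103) or without wild-type C57BL/6 replicate 1 (0.0674) or replicate 2 (0.0655). The beta-catSO call at E12.5 was lost without any 1 of beta-catSO E12.5 replicates 1, 2 and 3 or wild-type CD1 E12.5 replicates 2 and 3, with limma adjusted p up to 0.117.

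A pair of cellular retinoic acid binding proteins carry the acid inside the cell: Crabp1 is linked to its breakdown in the cytoplasm and Crabp2 to its delivery to nuclear receptors. Crabp1 is on chromosome 9 (54764748 to 54773110, plus strand) and Crabp2 on chromosome 3 (87948666 to 87953376, plus strand). They did not change alike.

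Crabp1 read 9.07, 8.90 and 8.70 in wild-type C57BL/6 E12.5 and 9.67, 9.23 and 9.32 in beta-catSD E12.5, and at E13.5 8.33, 8.44 and 8.11 against 8.92, 8.79 and 8.75. The mutants lay above the wild-types at both stages. The averaged change was 0.52 ± 0.10, or 1.43-fold (limma adjusted p = 0.00159), and held without any 1 library. By stage it was 0.52 ± 0.14 at both E12.5 (limma adjusted p = 0.061) and E13.5 (0.0392). The E12.5 change was called with a replicate block (limma adjusted p = 0.0238), voom weights (0.0473) or the line fitted alone (0.0439). The E13.5 call was lost with voom weights (limma adjusted p = 0.0998) or no trend (0.0925), and without any 1 of the 6 libraries compared (limma adjusted p from 0.0554 to 0.206). In beta-catSO, Crabp1 read 9.32, 9.69 and 9.75, then 8.34, 8.54 and 8.12, against 9.33, 9.24 and 9.20, then 7.91, 8.43 and 8.33, in wild-type CD1. These groups overlapped, and the averaged change of 0.22 was not called (95% interval 0.01 to 0.43, limma adjusted p = 0.139).

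Crabp2 fell in beta-catSO. Wild-type CD1 read 7.34, 7.37 and 7.34 at E12.5 and 7.13, 7.32 and 7.38 at E13.5, and beta-catSO read 7.01, 7.12 and 6.99, then 6.45, 6.35 and 6.37. Mutant and wild-type groups were apart at both stages, and the beta-catSO E13.5 libraries were the lowest of the 24. The changes were -0.31 ± 0.08 (limma adjusted p = 0.0184) and -0.88 ± 0.08 (5.28e-08). The smaller, E12.5 call was lost without any 1 of beta-catSO replicates 1 and 3 and wild-type CD1 replicates 1, 2 and 3 of that stage (limma adjusted p up to 0.0844). In beta-catSD, Crabp2 read 8.0, 7.79 and 7.76, then 7.71, 7.56 and 7.48, against 7.66, 7.55 and 7.43, then 7.36, 7.45 and 7.57, in wild-type C57BL/6. The groups were apart at E12.5 and overlapped at E13.5. The averaged change of 0.21 ± 0.06 was called (limma adjusted p = 0.0231) but was lost without beta-catSD E12.5 replicate 1 (0.0637), beta-catSD E13.5 replicate 1 (0.0797), wild-type C57BL/6 E12.5 replicate 3 (0.068) or wild-type C57BL/6 E13.5 replicate 1 (0.0651).

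Rara, on chromosome 11 (98927818 to 98974942, plus strand), encodes the broadly expressed retinoic acid receptor alpha. It stayed within 5.56 to 6.12 log2 CPM over all 24 libraries, the narrowest range of the 9 genes, and was called in none of the 14 comparisons fitted. The lowest values relative to wild-type were at E12.5 in beta-catSO, with 5.81, 5.87 and 5.70 against 6.12, 6.03 and 6.02; these groups were apart, and the change of -0.26 ± 0.10 was not called (limma adjusted p = 0.126). Its averaged change was 0.04 in beta-catSD (95% interval -0.11 to 0.19) and -0.10 in beta-catSO (-0.25 to 0.05).

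Rarb, on chromosome 14 (16430839 to 16819156, minus strand), encodes receptor beta and is itself a standard target of retinoic acid. The RefSeq window of its start (GRCm38.p6, chr14:16575427-16575726, minus strand, written along the gene) is shown because it holds the only match in the same windows to a retinoic acid response element of the DR5 type. Capitals mark that match, a direct repeat of 2 half-sites that begins 53 bases before the start.
Rarb: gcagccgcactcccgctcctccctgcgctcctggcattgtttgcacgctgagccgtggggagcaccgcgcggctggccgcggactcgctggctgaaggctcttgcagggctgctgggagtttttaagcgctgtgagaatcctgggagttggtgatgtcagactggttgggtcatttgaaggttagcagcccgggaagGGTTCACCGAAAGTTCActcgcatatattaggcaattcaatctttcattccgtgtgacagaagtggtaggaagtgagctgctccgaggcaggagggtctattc
DR1, DR2 and DR5 repeats were searched on both strands. DR5 repeats were in 0.0974% of the 32851 windows, DR2 repeats in 0.268% and DR1 repeats in 0.222%. Windows were found for 8 of the 9 genes, 16 in all, and these matches and misses describe letters in the windows only.

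Wild-type CD1 read 6.54, 6.50 and 6.60 in Rarb at E12.5 and 6.46, 6.89 and 7.12 at E13.5, and beta-catSO read 6.35, 6.65 and 6.15, then 6.24, 6.52 and 6.32. The groups overlapped at both stages, and wild-type CD1 E13.5 was widely spread. The change was -0.16 ± 0.13 at E12.5 (limma adjusted p = 0.554), -0.46 ± 0.13 at E13.5 (0.02) and -0.31 ± 0.09 on average (0.0226). Leaving out the library that stood apart, wild-type CD1 E13.5 replicate 1, made the average -0.40 (0.00116). The averaged call was lost without beta-catSO E12.5 replicate 3 (limma adjusted p = 0.0814), beta-catSO E13.5 replicate 1 (0.0599), wild-type CD1 E12.5 replicate 3 (0.0516) or wild-type CD1 E13.5 replicate 3 (0.0802). The E13.5 call was lost without beta-catSO replicate 1 or 3 or wild-type CD1 replicate 2 or 3 of that stage (limma adjusted p up to 0.156). In beta-catSD the averaged change was 0.07 (95% interval -0.12 to 0.27).

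Exons of Rarb overlap those of Top2b, a topoisomerase gene on the opposite strand, and whether the counting used strand is not stated, so the Rarb counts are uncertain to that extent. Top2b was not called in beta-catSO (-0.23 ± 0.08 at E13.5, limma adjusted p = 0.0657; -0.09 ± 0.06 on average, limma adjusted p = 0.331). None of the other 8 genes had another gene sharing 200 or more bases of transcript at 95% identity.

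Ecm1, extracellular matrix protein 1, is a secreted protein reported to act in the stroma downstream of retinoic acid to restrict Ret in the ureteric bud. It lies on chromosome 3 (95734147 to 95739569, minus strand). Wild-type CD1 read 7.15, 7.24 and 7.09 at E12.5 and 7.30, 7.82 and 7.77 at E13.5, and beta-catSO read 6.50, 6.39 and 6.25, then 6.61, 6.66 and 6.58. All 6 beta-catSO libraries were below every other library. The changes were -0.78 ± 0.13 (limma adjusted p = 0.000473) and -1.01 ± 0.13 (7.55e-06), or 1.71-fold and 2.01-fold lower.

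With deficient beta-catenin Ecm1 was higher. Wild-type C57BL/6 read 7.20, 7.18 and 7.29 at E12.5 and 7.71, 7.97 and 8.03 at E13.5, against 7.69, 7.69 and 8.19, then 8.48, 8.20 and 8.62, in beta-catSD. The groups were apart at both stages. The changes were 0.63 ± 0.13 (limma adjusted p = 0.0126) and 0.53 ± 0.13 (0.0263), and the average was 0.58 ± 0.09 (0.000328). The averaged call held without any 1 library. The E12.5 call was lost without beta-catSD replicate 3 (limma adjusted p = 0.113) or wild-type C57BL/6 replicate 1 (0.0536) or 2 (0.0591) of that stage, and the E13.5 call without beta-catSD replicate 1 (0.104) or 3 (0.145) or wild-type C57BL/6 replicate 1 (0.118) or 2 (0.0635).

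The difference between the responses of the 2 mutants was itself tested, as the beta-catSO change minus the beta-catSD change averaged over the stages. It passed for 7 of the 9 genes, 6 of them negative, beside 17.9% of all genes (9.87% positive and 8.05% negative). Over all genes this was 1362 positive and 1111 negative, and 1238 and 1278 under quantile normalization. It was negative for Aldh1a2 (-2.56 ± 0.17, limma adjusted p = 1.3e-10), Cyp26b1 (-1.58 ± 0.26), Ecm1 (-1.47 ± 0.13), Dhrs3 (-1.14 ± 0.16), Crabp2 (-0.81 ± 0.08) and Rarb (-0.38 ± 0.13), and positive for Stra6 (1.88 ± 0.18, limma adjusted p = 6.64e-08). Crabp1 (-0.30 ± 0.14, limma adjusted p = 0.153) and Rara (-0.14 ± 0.10, 0.392) did not pass. For Rarb the adjusted p was 0.0489, and it rose above the threshold in 17 of the 24 fits that left out 1 library. Crabp1 passed without wild-type CD1 E13.5 replicate 1 (-0.38, limma adjusted p = 0.0419). Stra6, Crabp2 and Ecm1 were called in opposite directions in the 2 mutants, as were 2.17% of all genes, and 0.891% of all genes, none of them among the 9, were called in the same direction in both. Strain and mutation change together in this difference and cannot be told apart in it.

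By stage, 3 of 9 genes were called in beta-catSD at E12.5 (1.72% of all genes) and 4 at E13.5 (3.4%), and 5 in beta-catSO at E12.5 (8.16%) and 6 at E13.5 (15.4%). Libraries of mutant and wild-type did not overlap at all for 6, 4, 6 and 5 of the 9 genes in the same order, beside 16%, 21.2%, 31.1% and 27.9% of all genes. Without wild-type CD1 E13.5 replicate 1 the beta-catSO changes at E13.5 were 1.14 for Stra6, -0.96 for Crabp2, -1.41 for Dhrs3, -1.18 for Ecm1 and -0.64 for Rarb, and the same 6 genes were called. The beta-catSO effect was larger at E13.5 than at E12.5 for Aldh1a2 (interaction -1.48 ± 0.23, limma adjusted p = 0.00285) and Crabp2 (-0.57 ± 0.12, 0.0147), 2 of 9 genes beside 1.33% of all. The Crabp2 interaction was lost without wild-type CD1 E13.5 replicate 3 (limma adjusted p = 0.0551), and Dhrs3 joined without wild-type CD1 E13.5 replicate 1 (-0.78, 0.0492). For beta-catSD limma called no interaction among the 9 genes, and 0 of them had an unadjusted p under 0.05; over all genes it called 0%, with 753 genes at an unadjusted p under 0.05.

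**Figure D4:**
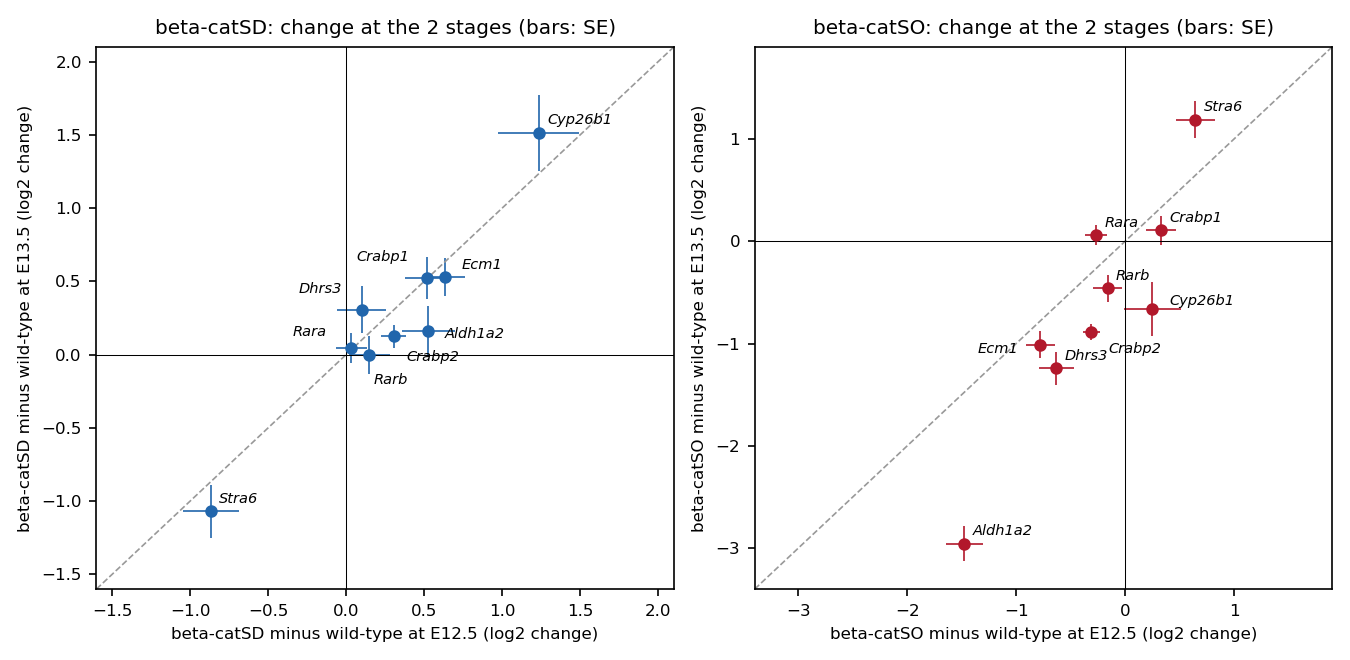
Each point is 1 gene, with its log2 change from wild-type at E12.5 on the x axis and at E13.5 on the y axis, for beta-catSD (left) and beta-catSO (right); bars are standard errors, the dashed line marks equal change, and the axes of the panels differ. Aldh1a2 in beta-catSO lies far below the line, at -1.47 and -2.95, and the beta-catSD points lie near it.

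Some of the genes also differed between stages in wild-type cells. From E12.5 to E13.5, Crabp1 fell in both strains, by 0.60 ± 0.14 in C57BL/6 (limma adjusted p = 0.0212) and by 1.03 ± 0.14 in CD1 (0.000212), and Ecm1 rose in both, by 0.68 ± 0.13 (0.00788) and 0.47 ± 0.13 (0.039). Aldh1a2 rose by 0.62 ± 0.17 in CD1 (limma adjusted p = 0.0302). These make 2 of 9 genes in C57BL/6, beside 3.96% of all genes, and 3 of 9 in CD1, beside 5.42%. Of these calls, that of Crabp1 in CD1 held without any 1 library. Without wild-type C57BL/6 E13.5 replicate 3 neither gene passed in that strain (limma adjusted p = 0.12 for Crabp1 and 0.0551 for Ecm1), and Crabp1 was also lost without wild-type C57BL/6 E12.5 replicate 1 (0.0938) or 2 (0.0844). In CD1, Aldh1a2 and Ecm1 were lost without any 1 library other than wild-type CD1 E13.5 replicate 1 (limma adjusted p from 0.0557 to 0.186), while without that library Rara (-0.39, 0.035) and Rarb (0.46, 0.0309) were called too. Between the strains, averaged over stages, only Aldh1a2 of the 9 was called, 0.41 ± 0.12 higher in C57BL/6 (limma adjusted p = 0.0456; 4.46% of all genes), and 0.28 (0.101) without wild-type CD1 E13.5 replicate 1. That call was lost in 10 of 12 fits that left out 1 library, the exceptions being without wild-type C57BL/6 E12.5 replicate 3 and without wild-type CD1 E13.5 replicate 3.

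Within single stages limma called 0 of the 9 between strains, beside 0.543% of all genes at E12.5 and 0.42% at E13.5. An unadjusted p under 0.05 was reached by 4 and 2 of the 9, beside 1963 and 1686 of all 13803 genes. At E13.5, Cyp26b1 was called without wild-type CD1 E13.5 replicate 3 (-1.12, limma adjusted p = 0.0372).

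Ordered by group mean, Aldh1a2 ran from beta-catSD E13.5 at the top, through beta-catSD E12.5 and the wild-types, to beta-catSO E12.5 and E13.5 at the bottom. Neighbours down to wild-type C57BL/6 E12.5 overlapped, and each later step was a gap. Dhrs3 and Crabp2 ended in the same 2 groups, again with no overlap. Ecm1 ended with beta-catSO E13.5 and then E12.5. Stra6 had beta-catSO E13.5 and E12.5 at the top, overlapping each other and no other group. Crabp1 followed stage rather than genotype at its low end, with beta-catSO E13.5 and both E13.5 wild-types overlapping there. Neighbouring groups overlapped at every step for Rara and Rarb.

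Of 27 further genes of retinoid metabolism and transport, 17 were in the table. In beta-catSD 3 of these fell and none rose, beside 7.17% of all genes called: Rdh10, the retinol dehydrogenase of the first oxidation step (-0.57 ± 0.10, limma adjusted p = 0.00104), the alcohol dehydrogenase Adh1 (-1.07 ± 0.29, 0.026) and Fabp5, a fatty acid binding protein that can also carry retinoic acid (-0.90 ± 0.20, 0.00498). In beta-catSO 1 of the 17 rose, Adh1, and 1 fell, a share below the 18.5% called over all genes. The median change over the 17 was -0.07 in beta-catSD and -0.05 in beta-catSO. Aldh1a3, a related synthesising enzyme, was not called in either mutant (0.94 ± 0.41, limma adjusted p = 0.191, and -0.49 ± 0.41, 0.472). Cyp26a1 is not analysed here.

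Rdh10 read 7.22, 7.23 and 7.21 in wild-type C57BL/6 E12.5 and 7.06, 6.72 and 6.55 in beta-catSD E12.5, and at E13.5 6.77, 6.60 and 6.62 against 6.05, 6.32 and 5.54. Mutants were below wild-types at both stages. In beta-catSO its averaged change was -0.25 ± 0.10 (limma adjusted p = 0.103), which was called without wild-type CD1 E13.5 replicate 1 (-0.33, 0.021). Adh1 read 4.67, 5.02 and 4.14 in wild-type CD1 E12.5 and 6.74, 6.70 and 6.91 in beta-catSO E12.5, and at E13.5 4.84, 3.78 and 4.44 against 7.19, 7.32 and 7.41. The groups were far apart, and the averaged change was 2.57 ± 0.29 (limma adjusted p = 6.58e-07). The opposite Adh1 change in beta-catSD was lost in 7 of the 12 fits that left out 1 library: without beta-catSD E12.5 replicate 2, beta-catSD E13.5 replicate 1 or 3, wild-type C57BL/6 E12.5 replicate 1 or 3 or wild-type C57BL/6 E13.5 replicate 1 or 2 (limma adjusted p up to 0.0846).

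All 14 further receptors and coregulators were in the table, 2 called in beta-catSD and 4 in beta-catSO, beside 7.17% and 18.5% of all genes, with medians of 0.03 and -0.11. Rarg, receptor gamma, was higher in both mutants, by 0.36 ± 0.08 (limma adjusted p = 0.00588) and 0.38 ± 0.08 (0.00129). The coactivator Ncoa1 rose in beta-catSO (0.33 ± 0.08, limma adjusted p = 0.00443) and Ppard, a receptor that can bind retinoic acid, fell (-0.36 ± 0.09, 0.00584). Rxra, the common partner of the receptors, was not called with -0.13 ± 0.07 (limma adjusted p = 0.194), though it was without beta-catSO E13.5 replicate 1 (-0.20, 0.0235).

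Of 18 genes known to respond to retinoic acid in embryos, 15 were in the table. In beta-catSO 9 were lower and 2 higher, beside 8.32% and 10.2% of all genes, with a median change of -0.48 over the 15. In beta-catSD limma called 0 of the 15, beside 7.17% of all genes, and the median was -0.05. An unadjusted p under 0.05 was reached there by 3 of the 15, beside 2757 of all 13803 genes. The list holds Foxd1, whose promoter drives the sorted marker, and overlaps the metabolism and transport list. In beta-catSO Foxd1 changed by -1.02 ± 0.11 (limma adjusted p = 1.56e-07), the homeobox genes Hoxb5 by -0.84 ± 0.17 (0.000862) and Meis2 by -0.48 ± 0.09 (0.00029), and the zinc finger gene Zfp703 by -0.63 ± 0.11 (0.000206). Tshz1, another zinc finger gene, was higher (0.40 ± 0.08, limma adjusted p = 0.000737). Hoxb5 read 3.14, 3.14 and 3.28 in wild-type CD1 E12.5 and 2.60, 1.75 and 2.42 in beta-catSO E12.5, then 3.65, 3.21 and 2.93 against 2.77, 2.48 and 2.26 at E13.5. The groups were apart at both stages. At E13.5 the beta-catSO calls of Hoxb5 and Tshz1 were lost without wild-type CD1 E13.5 replicate 1 (-0.56, limma adjusted p = 0.152, and 0.29, 0.125).

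**Figure D5:**
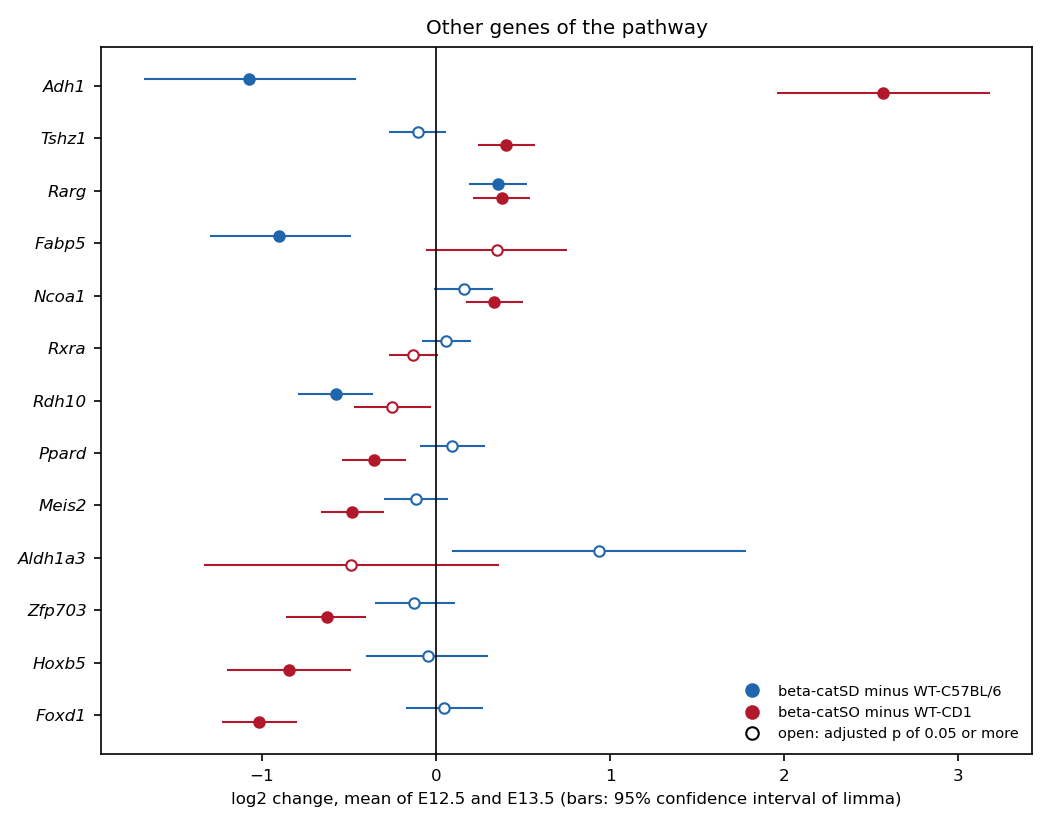
The x axis is the log2 change from wild-type averaged over E12.5 and E13.5 for 13 other genes of the pathway in beta-catSD (blue) and beta-catSO (red); bars are 95% confidence intervals of limma, and open points did not reach an adjusted p under 0.05. Adh1 stands out at 2.57 in beta-catSO, and the filled beta-catSO points of Foxd1, Hoxb5 and Zfp703 lie left of 0, between -1.02 and -0.63.

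Markers of cell types moved with the groups, and their part in the results was not tested. Calls of markers are for the average over the stages unless a stage is named. Over all genes the averaged calls were 18.5% in beta-catSO and 7.17% in beta-catSD. At E12.5 and E13.5 they were 8.16% and 15.4% in beta-catSO, and 1.72% and 3.4% in beta-catSD. Of all 13803 genes, 1917 had an unadjusted p under 0.05 in beta-catSD at E12.5. In beta-catSO it was 4119 on average and 2927 at E12.5. Of 9 cortical stroma markers, Foxd1 among them, 5 were lower and 1 higher in beta-catSO; their summed level was 2230 to 2270 CPM at E12.5 and 2090 to 2250 at E13.5, against 2670 to 2830 and 2860 to 4720 in wild-type CD1 (3920 and 4720 without E13.5 replicate 1). Of 8 medullary stroma markers 7 were higher and 1 lower in beta-catSO, with sums of 2310 to 2380 and 2610 to 3320 CPM against 1890 to 1960 and 1460 to 1780 (1710 and 1780 without that library). The 8 include Lef1 and Nkd1, which like Axin2 are targets of beta-catenin, so they do not measure medullary stroma apart from the genotype. In beta-catSD, where Stra6 fell, 4 of the 8 were lower and 1 higher, though the sums were above wild-type (2080 to 2280 and 1930 to 2060 CPM against 1720 to 1930 and 1650 to 1780). Of 7 ureteral mesenchyme markers 5 were higher in beta-catSO, and in beta-catSD 2 were lower. The beta-catSO sums were 807 to 822 and 763 to 822 CPM against 631 to 663 and 443 to 594 in wild-type CD1 (549 and 594 without E13.5 replicate 1). In beta-catSD 12 of 14 macrophage markers were lower; by stage limma called 0 at E12.5, with 3 at an unadjusted p under 0.05, and 13 at E13.5 (93.1 to 220 CPM at E12.5 and 21.4 to 56.1 at E13.5, against 130 to 808 and 218 to 358 in wild-type C57BL/6). Of 14 endothelial markers 10 were lower there, 1 and 8 by stage (55.3 to 108 and 59.3 to 92.2 CPM against 75.2 to 247 and 159 to 170). No macrophage, endothelial or cortical stroma marker was at 0 reads in all 3 libraries of a group. In beta-catSO limma called 0 of the 14 macrophage and 0 of the 14 endothelial markers on average and at E12.5, where 0 macrophage markers and, in order, 1 and 0 endothelial markers had an unadjusted p under 0.05. At E13.5 2 of the 14 macrophage markers and 1 of the 14 endothelial markers were higher, no more than the 15.4% of all genes called. Macrophage sums there were 522 to 1310 CPM against 355 to 486 in wild-type CD1 (355 and 398 without replicate 1), and endothelial sums 330 to 508 against 56.2 to 1050 (56.2 and 103 without it).

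Blood, liver and nephron progenitor markers also differed between groups, and their part was likewise not tested. Of 7 erythroid markers 3 were lower in each mutant. The erythroid sums were 9.16 to 61.4 CPM in beta-catSD E12.5 and 9.66 to 41.1 at E13.5, against 570 to 834 and 41.4 to 1180 in wild-type C57BL/6. In beta-catSO they were 60 to 976 and 74.5 to 577 CPM, against 3210 to 3320 and 40.5 to 4050 in wild-type CD1 (40.5 and 1400 without E13.5 replicate 1). Of 6 liver markers 3 were lower in beta-catSO, with sums of 0.47 to 0.753 and 0.408 to 3.12 CPM. Wild-type CD1 had 186 to 201 and 0.661 to 838 CPM (0.888 and 838 without E13.5 replicate 1). Nephron progenitor sums were higher in beta-catSD, at 191 to 308 and 246 to 342 CPM against 112 to 134 and 155 to 180, without overlap. Of the 10 markers 1 was called, as higher, beside 7.17% of all genes. Of 13 ureteric bud markers 2 were higher in beta-catSO and 1 lower in beta-catSD, near the shares of all genes called (18.5% and 7.17%). Of the 11 general stromal markers 3 were higher and 5 lower in beta-catSO, and 1 higher and 3 lower in beta-catSD.

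The genes whose levels ran most alike to each of the 9 over the 24 libraries were taken as the top 3 Pearson correlations among 11022 genes with a mean of at least 2 log2 CPM. The libraries share groups, strains and stages, so these values are a description. Aldh1a2 ran with Hic1 (r = 0.982), Mapre2 (0.977) and Klhdc10 (0.976). Dhrs3 ran with Pde9a (0.959), with Aldh1a2 itself (0.952) and with Itga9 (0.944). Stra6 ran with the medullary stroma marker Alx1 (0.964), then Pdzrn3 (0.948) and Negr1 (0.946). Ecm1 ran with Maged2 (0.982), Pear1 (0.976) and Ggt5 (0.964), and Crabp2 with Cdkn1c (0.953), Ebf1 (0.952) and AW551984 (0.948). Cdkn1c is on the same medullary stroma list as Alx1, although Crabp2 fell in beta-catSO and Stra6 rose. Crabp1 ran with Auts2 (0.937), Cxcl12 (0.877) and Trp53inp1 (0.874). Cyp26b1 ran with Ppargc1a (0.830), Sox9 (0.734) and Cavin2 (0.724), and Rarb with Klf14 (0.866), Rbbp7 (0.863) and Ptgis (0.860). For Rara, which varied least, the best were Commd7 (0.661), Zc3h8 (0.636) and Amacr (0.632).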

How the data were processed

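The deposited table holds log2 CPM values with TMM library sizes and 0.5 added to each count, per the file name and the values; HISAT2, HTSeq, limma and mm10 appear, without parameters, in the submitters' processing notes. Reads were recovered from these log2 values for depth only, since 100% came out whole within 0.1. The values were fitted with limma 3.58.1 (R 4.3.3): 8 group means over 24 libraries, moderated with a trend on mean level, 16 residual and 6.43 prior degrees of freedom, and 14 contrasts, each adjusted over 13803 genes by Benjamini-Hochberg. A filter of log2 CPM above 0 in 3 libraries removed 0 genes. The unit is a log2 value, so no count model was used. No 2 libraries of a group matched within sampling noise (chi-square per gene 4.08 to 24.1 over 24 pairs). The script was tested on simulated data. Named beside the 9 genes were further pathway genes called in an averaged contrast (at most 6 a list and contrast), Rdh10, Rarg, Rxra and Aldh1a3, and the 3 genes most like each member; some genes under this rule are not reported here. The genes and lists were chosen with earlier results of these data known. Positions are from GENCODE M21 (GRCm38) and promoter sequences from RefSeq (GRCm38.p6). Alternatives were other weights, library sizes, filters and pseudocounts, fits by line, a replicate block and leaving out libraries.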

Additional observations from a re-analysis of the deposited data

Results flagged for a closer look

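For 7 genes the response to stabilised beta-catenin differed from the response to its deficiency by the test of the difference itself (log2, beta-catSO change minus beta-catSD change, averaged over stages): Aldh1a2 by -2.56, Cyp26b1 by -1.58, Ecm1 by -1.47, Dhrs3 by -1.14, Crabp2 by -0.81, Rarb by -0.38 and Stra6 by 1.88. The Rarb difference was lost with voom weights (limma adjusted p = 0.0869) or no trend (0.0837). It was also lost without the 2 libraries highest in the liver gene Alb (0.149) and in most fits that left out 1 library. The beta-catSO response differed between stages for Aldh1a2, by -1.48 from E12.5 to E13.5, and for Crabp2, by -0.57. Groups of 3 libraries were not tested for outlying values.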

How the results depend on the processing

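Of 2412 values of the 9 genes under an alternative, 2280 kept their side of the threshold, 110 calls were lost, 22 were gained and 0 called values changed sign. Scaling moved the median of all genes by less than 0.04. The averaged calls of Aldh1a2, Stra6, Ecm1, Dhrs3 and Crabp2 in beta-catSO, and of Cyp26b1, Stra6, Ecm1 and Crabp1 in beta-catSD, held under every alternative run. The Rarb call in beta-catSO was lost with the line fitted alone (adjusted p = 0.0608) and without the 2 libraries highest in Alb (0.08), and the averaged Crabp2 call in beta-catSD was lost under the same settings (0.0605 and 0.062). Depth was 143 reads or more for each of the 9 genes.

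Of the 9 genes, 5 were called in beta-catSD at E12.5 with voom weights and 5 with the line fitted alone (3 otherwise), and 2 at E13.5 with no trend (4 otherwise). All genes called at E13.5 in beta-catSD were 193 with voom weights (469 otherwise), and 643 for the averaged beta-catSD contrast (990 otherwise). Without the 2 Alb libraries, all genes called were 22 for the beta-catSD stage interaction, 112 for that of beta-catSO, 367 for CD1 stage and 1062 and 476 for strain, averaged and at E12.5. Of the 9 genes the same setting called 1 for CD1 stage, 3 for averaged strain and 1 for strain at E13.5. With no trend 76 genes were called for the beta-catSO interaction, 298 for C57BL/6 stage and 407 for averaged strain, with 1 of the 9 for C57BL/6 stage, 1 for CD1 stage and 0 for averaged strain. Fitting the line alone called 262 genes for C57BL/6 stage. Voom weights called 122 and 37 genes for strain at E12.5 and E13.5, and quantile normalization 0 of the 9 for averaged strain.

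Leaving out 1 library, the number of the 9 genes called ranged from 0 to 3 and 2 to 3 in beta-catSD by stage, 2 to 3 in beta-catSO at E12.5, 1 to 3 for the beta-catSO interaction, 0 to 2 and 1 to 5 for wild-type stage in C57BL/6 and CD1, and 0 to 3 and 0 to 1 for strain on average and at E13.5. All genes called ranged from 92 to 395 and 244 to 370 in beta-catSD by stage, 720 to 883 in beta-catSO at E12.5, 0 to 23 and 61 to 532 for the interactions of beta-catSD and beta-catSO, 83 to 605 and 290 to 785 for wild-type stage, and 233 to 1007, 18 to 459 and 28 to 86 for strain on average, at E12.5 and at E13.5.

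The labels do not say whether replicate numbers pair the libraries, and the correlations do not settle it. Deviations of same-numbered libraries correlated at -0.365 to 0.276 over 36 pairs (median 0.014, with 8 above 0.1). For different numbers this was -0.24 to 0.241 over 72 pairs (median -0.0225, with 9 above 0.1). Same-numbered values were 0.198, 0.072 and 0.276 for beta-catSD with wild-type C57BL/6 at E12.5. They were -0.365, -0.128 and -0.105 between the stages in wild-type CD1. With a replicate block, those of the 9 called were 4, 4, 5 and 6 in the 4 mutant comparisons by stage, and 0 for averaged strain, and 124 genes were called for strain at E12.5.

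Per kilobase of coding sequence the wild-type levels were 9.70 for Aldh1a2, 9.95 for Crabp1, 8.68 for Crabp2, 6.69 for Ecm1, 7.27 for Dhrs3, 6.00 for Rarb, 5.26 for Rara, 4.90 for Stra6 and 4.07 for Cyp26b1. The planned count tests, edgeR and DESeq2, were not run because the deposited unit is a log2 value. The causes of these changes were not tested.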
